A study of Mus musculus with 22 samples.

Results

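The epithelial-mesenchymal transition (EMT) regulators and the classical cadherins were followed through 22 mouse bladder samples. The 10 genes were taken as a list by role: the zinc finger repressors Snai1, Snai2, Zeb1 and Zeb2, the basic helix-loop-helix factors Twist1 and Twist2, the intermediate filament gene Vim, and Cdh1, Cdh2 and Cdh3, which encode E-, N- and P-cadherin. They are 10 of the 22911 mouse genes that could be named on the array, carry 13 of its probes, and were all among the 17404 genes bright enough to be tested. Each sample's total RNA, labelled with Cy3, was hybridised to 1 single-colour Agilent array.

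In an epithelium, E-cadherin holds neighbouring cells together, and P-cadherin does so mainly in the basal layer. During an EMT, repressors of the Snail and Zeb families bind E-box sequences in the promoters of epithelial genes such as Cdh1, while the Twist factors favour mesenchymal genes such as Cdh2. Vimentin is abundant in fibroblasts, endothelium and leukocytes, which a whole bladder also holds. Fewer cells of a type and less RNA per cell cannot be told apart in such samples.

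All samples came from mice 8 months old, and 19 samples, in 7 groups, from mice that had drunk N-butyl-N-(4-hydroxybutyl)nitrosamine (BBN), a bladder carcinogen, for 24 weeks. These 19 carry 17 distinct source codes: Upk2-Cre replicates 1 and 2 share a code, as do Trp53 het replicates 1 and 2. In Upk2-Cre, Xist was well above background in replicate 1 alone and Y-linked genes in replicate 2 alone. These 2 arrays thus read as animals of different sex. The Trp53 het pair, with Y-linked signal and no Xist in both replicates, may not be separate animals. The mutant groups carried a tamoxifen-inducible Cre recombinase (CreERT2), an LSL-RFP reporter and 1 mutant Trp53 allele, R270H or R172H, and received tamoxifen. With Krt5-Cre there were 3 arrays of R270H and 4 of R172H, and with Upk2-Cre there were 2 of R270H and 3 of R172H. Krt5 is expressed in basal and Upk2 in superficial urothelial cells, so Cre was directed to those cells, whereas the RNA came from the whole sample. Where recombination took place was not measured here. The group called Trp53 het (3) had BBN without Cre or tamoxifen, and its labels give the genotype Trp53 R270H/+ beside the title Trp53+/-. The Krt5-Cre (2) and Upk2-Cre (2) groups had the same Cre, reporter, tamoxifen and BBN without a mutant allele. The normal group (3) was wild type with neither BBN nor tamoxifen. Samples with BBN are labelled as tumours of the bladder and the normal ones as urothelium, although the extraction protocol speaks of bladders.

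Levels are given as log2 of the processed spot signal relative to the 75th percentile of the same array, so that a level of 0 lies at that percentile and a difference of 1 is a doubling. They are comparable between samples for a gene well above background, but not between genes. The share of spots well above background was between 42.4% and 63.2% per array, and no spot was saturated. The arrays fall on 2 scanners: 11 arrays, all with BBN, on scanner 1, and 8 with BBN and the 3 normal ones on scanner 2. The share of spots well above background was 42.4% to 57.2% on scanner 1 and 56.3% to 63.2% on scanner 2. The lowest level well above background was -4.48 to -2.69 on scanner 1 and -5.81 to -5.00 on scanner 2. A dim level can thus be background on scanner 1 and signal on scanner 2. The normal arrays fill a slide of their own, so that slide and normal tissue cannot be told apart. On 11 arrays (8 BBN, 3 normal) Xist and Y-linked signals did not match the labelled sex, and on 1 more they settled nothing. Smooth muscle markers had a mean level of 1.54 to 5.69 in BBN samples and 0.58 to 1.67 in normal samples. Fibroblast markers had a mean level of -0.11 to 4.15 in BBN samples, against 3.70 to 4.32 in normal samples. Luminal urothelial markers had a mean level of -1.69 to 3.13 in BBN samples and 6.47 to 6.94 in normal samples, with 4 of 5 called lower after BBN.

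The regulators that bind the E-box CAGGTG include Snai1 and the Zeb factors. Since Snai1 and Vim, described below, were the pair of members with the highest correlation across BBN samples, their promoters are shown, as RefSeq gives them for GRCm38.p6, from 250 bases before to 50 bases after the start. Capitals mark the motif CAGGTG, searched on both strands and written CACCTG where it lies on the other one. The Snai1 window is chr2:167537945-167538244 and the Vim window chr2:13574061-13574360, both on the plus strand.
Snai1: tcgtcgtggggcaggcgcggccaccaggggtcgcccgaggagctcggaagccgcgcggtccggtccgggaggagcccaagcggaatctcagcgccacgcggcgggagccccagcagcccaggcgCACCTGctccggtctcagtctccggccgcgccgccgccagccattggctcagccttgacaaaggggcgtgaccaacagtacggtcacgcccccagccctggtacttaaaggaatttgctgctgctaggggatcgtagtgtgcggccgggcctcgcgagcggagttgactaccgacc
Vim: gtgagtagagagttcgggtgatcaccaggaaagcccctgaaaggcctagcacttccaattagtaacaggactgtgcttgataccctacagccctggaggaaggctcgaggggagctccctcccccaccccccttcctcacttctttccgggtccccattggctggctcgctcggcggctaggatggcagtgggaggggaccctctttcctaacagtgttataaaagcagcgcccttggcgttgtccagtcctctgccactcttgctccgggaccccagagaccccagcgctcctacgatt
The Snai1 window holds 1 copy, at position -126 relative to the start, and the Vim window 0 copies. Of 32851 mouse promoter windows of this length, 20.2% hold the motif, so a copy is a common feature. The Twist1 and Twist2 windows and the 4 windows of Zeb2 hold 0 copies.

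After BBN, P-cadherin RNA was higher in every sample, Snai1 RNA was lower in most, and Snai2 RNA was higher in most. Against normal samples, Cdh3 rose by 2.28 on the log2 scale (SE 0.35, 4.85-fold), Snai2 by 1.09 (SE 0.43, 2.13-fold), and Snai1 fell by 1.93 (SE 0.64, 3.80-fold). Cdh1 differed by -0.04 with a 95% interval of -0.63 to 0.55. Thus 2 members were higher and 1 was lower of 10, beside 42.7% of all 17404 tested genes that were called in this comparison (23.7% higher and 19% lower). The share of members called lies below that of all genes. The median difference over the members was -0.41 and over all tested genes 0.13. Tests are limma's moderated test across all genes, with Benjamini-Hochberg adjusted p at or under 0.05 taken as a call. A difference is the mean of the 7 BBN group means minus the normal mean.

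**Figure D1:**
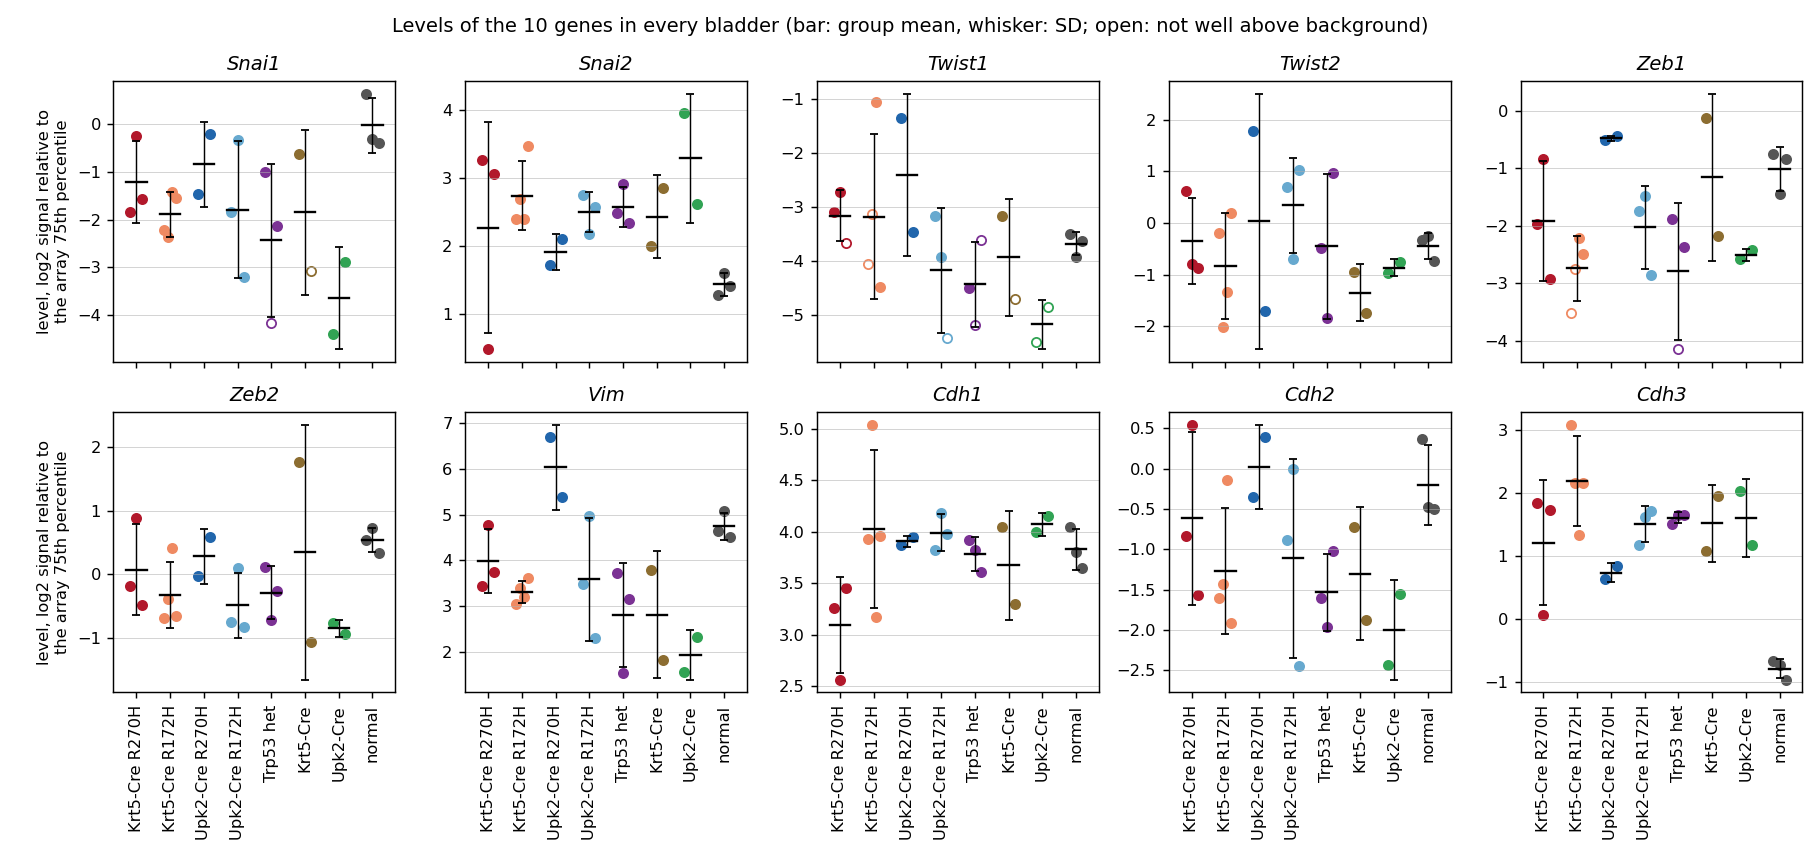
Level of each of the 10 genes (vertical axis, log2 relative to the 75th percentile of the array) in each of the 22 samples, by group, with the group mean as a bar and the SD as a whisker. Open circles are spots not well above background. All 19 BBN samples lie above the 3 normal samples for Cdh3, and 16 of 19 lie below them for Snai1.

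Cdh3 encodes P-cadherin, the cadherin of basal epithelial cells. Its level was 1.84, 0.06 and 1.74 in Krt5-Cre R270H samples, 3.09, 2.17, 1.34 and 2.17 in Krt5-Cre R172H samples, and 1.08 and 1.96 in Krt5-Cre samples. It was 0.63 and 0.84 in Upk2-Cre R270H samples, 1.18, 1.61 and 1.72 in Upk2-Cre R172H samples, and 2.04 and 1.17 in Upk2-Cre samples. Trp53 het samples had 1.51, 1.66 and 1.66, against -0.67, -0.74 and -0.97 in normal samples. Every BBN sample was above every normal one, and the lowest BBN sample was replicate 2 of Krt5-Cre R270H. Groups that do not overlap in this way made up 13.6% of all tested genes. The difference of 2.28 had an interval of 1.54 to 3.01 and an adjusted p of 9.66e-05 (limma). It was 2.37 among the arrays of scanner 2 alone (adjusted p = 0.000264) and 2.06 with scanner as a block (adjusted p = 0.00104). The call held in each of the 36 other settings run. Basal urothelial markers moved alongside: their mean level was 6.22 to 7.84 in BBN samples and 4.37 to 4.89 in normal samples, with 2 of 4 called higher. Their part in the Cdh3 result was not tested.

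Snai2, also called Slug, is a repressor found in basal epithelial cells as well as in mesenchyme. It read 3.27, 0.49 and 3.05 in Krt5-Cre R270H samples, 2.39, 2.69, 2.39 and 3.46 in Krt5-Cre R172H samples, and 2.00 and 2.86 in Krt5-Cre samples. In Upk2-Cre R270H samples it read 1.72 and 2.10, in Upk2-Cre R172H samples 2.74, 2.18 and 2.58, and in Upk2-Cre samples 3.95 and 2.62. Levels were 2.48, 2.91 and 2.34 in Trp53 het samples and 1.28, 1.61 and 1.42 in normal samples. All BBN samples but 1 were above the 3 normal ones; replicate 2 of Krt5-Cre R270H was below all of them. The adjusted p of 0.0495 (limma, interval 0.19 to 2.00) lay at the threshold. Without that replicate the difference was 1.22 (adjusted p = 0.00231), and among scanner 2 arrays it was 1.33 (adjusted p = 0.00491). The call was lost with scanner as a block (1.21, adjusted p = 0.0813), and on leaving out any 1 normal array (1.02 to 1.18, adjusted p between 0.103 and 0.158). It was also lost on leaving out most single BBN arrays, so that Snai2 is a borderline result.

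Snai1, a Snail repressor of Cdh1, was not well above background on 2 of the 22 arrays. Levels were -1.85, -0.24 and -1.57 in Krt5-Cre R270H samples, -2.22, -2.36, -1.43 and -1.54 in Krt5-Cre R172H samples, and -0.62 and -3.07 in Krt5-Cre samples. They were -1.47 and -0.21 in Upk2-Cre R270H samples, -1.83, -0.34 and -3.19 in Upk2-Cre R172H samples, and -4.39 and -2.89 in Upk2-Cre samples. Trp53 het samples had -0.99, -4.17 and -2.14, against 0.64, -0.31 and -0.40 in normal samples. None of the 19 BBN samples lay above the normal range, 3 lay inside it and 16 below. The spread within BBN samples was wide, with an SD of 1.22 (n = 19) beside 0.57 in normal samples (n = 3). The difference of -1.93 had an interval of -3.28 to -0.57 and an adjusted p of 0.0234 (limma). It was -1.83 among scanner 2 arrays (adjusted p = 0.0344), but with scanner as a block it was -1.32 (adjusted p = 0.167). Leaving out a normal array moved the adjusted p to 0.131, 0.0586 or 0.0544. With Xist minus Y-linked signal as a covariate the difference was -1.53 (adjusted p = 0.0854), a setting added after seeing the data. Fibroblast markers moved the same way, with 5 of 7 lower and 0 higher. Their mean level was -0.11 to 4.15 in BBN samples against 3.70 to 4.32 in normal samples, so the ranges overlap. Their part in the Snai1 result was not tested.

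Vim, the mesenchymal intermediate filament gene, missed the threshold. Its level was 3.43, 4.76 and 3.74 in Krt5-Cre R270H samples, 3.05, 3.39, 3.21 and 3.62 in Krt5-Cre R172H samples, and 3.79 and 1.83 in Krt5-Cre samples. It was 6.69 and 5.38 in Upk2-Cre R270H samples, 3.48, 4.98 and 2.30 in Upk2-Cre R172H samples, and 1.56 and 2.32 in Upk2-Cre samples. Trp53 het samples had 3.71, 1.55 and 3.17, against 4.65, 5.07 and 4.51 in normal samples. Both Upk2-Cre R270H samples were above all normal samples, 2 BBN samples lay inside the normal range and 15 below it. The difference was -1.25 (SE 0.51, interval -2.33 to -0.17, limma adjusted p = 0.0586). It passed in the authors' deposited table of normalized values (-1.55, adjusted p = 0.0218) and with quantile normalization (-1.51, adjusted p = 0.0318), and did not with scanner as a block (-0.87). Of 6 markers of endothelium, which also expresses Vim, 1 was lower and 0 were higher.

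Zeb1 and Zeb2 encode the paired zinc finger repressors of Cdh1. Zeb1, dim on 3 arrays, averaged -2.08 ± 1.05 in BBN samples and -1.02 ± 0.38 in normal samples (SD, n = 19 and 3), with 15 BBN samples below all normal ones, 3 above and 1 inside. The difference was -0.93 (interval -1.96 to 0.10, limma adjusted p = 0.131). A second Zeb1 probe was well above background on 12 arrays and correlated at 0.842 with the first over the BBN samples. Zeb2 averaged -0.20 ± 0.72 in BBN samples and 0.53 ± 0.19 in normal samples (SD, n = 19 and 3) by its brightest probe. The difference there was -0.71 (interval -1.60 to 0.18, limma adjusted p = 0.180). Its 3 probes gave different calls. The second, well above background on all 22 arrays, read -2.57 to 0.80 in BBN samples and 0.32 to 0.64 in normal samples, a difference of -1.60 (limma adjusted p = 0.00644). The dimmest probe, well above background on 7 of 19 BBN arrays and 3 of 3 normal arrays, gave -1.47 (adjusted p = 0.0147) with mostly dim readings on the BBN side, and the mean over the probes -1.26 (adjusted p = 0.00628). The brightest probe correlated at 0.912 with the second but at 0.352 with the dimmest over the BBN samples. By the brightest probe the adjusted p also turned to 0.0233 without replicate 1 of Krt5-Cre (difference -0.92), whose level of 1.76 was the highest of all samples.

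Twist1 and Twist2, factors of mesoderm and mesenchyme, showed no called difference. Twist1 was dim, well above background on 13 of 22 arrays, and ranged between -5.50 and -1.06 in BBN samples and between -3.93 and -3.50 in normal samples (difference -0.10, limma adjusted p = 0.902). Of the BBN samples, 8 were above all normal ones, 8 below and 3 inside. Twist2 ranged between -2.01 and 1.78 in BBN samples and between -0.73 and -0.26 in normal samples (difference -0.06, limma adjusted p = 0.950). Both signs turned under some settings, so no direction can be given for either gene.

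Cdh1, the epithelial cadherin that these factors repress, lay on both sides of the normal samples. Its level was between 2.56 and 5.04 in BBN samples, with a median of 3.92, and between 3.65 and 4.04 in normal samples, with a median of 3.80. Of the BBN samples, 4 were above all normal ones, 6 below and 9 inside. Replicate 2 of Krt5-Cre R270H was again the lowest, and replicate 2 of Krt5-Cre R172H the highest. The limma adjusted p was 0.919, and the sign of the difference turned under several settings. Cdh1 and Cdh3 lie side by side on the same chromosome in the RefSeq annotation of GRCm38.p6, with 3 annotated genes between them of which 0 code for protein. Their intervals, -0.63 to 0.55 for Cdh1 and 1.54 to 3.01 for Cdh3, do not overlap, although the difference between these genes was not itself tested. Cdh2, the mesenchymal and neural cadherin, lay between -2.45 and 0.55 in BBN samples and between -0.50 and 0.37 in normal samples. It differed by -0.91 (interval -1.94 to 0.12, limma adjusted p = 0.139), with 14 BBN samples below all normal ones, 2 above and 3 inside. Cdh1 and Cdh2 thus both missed the threshold.

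**Figure D2:**
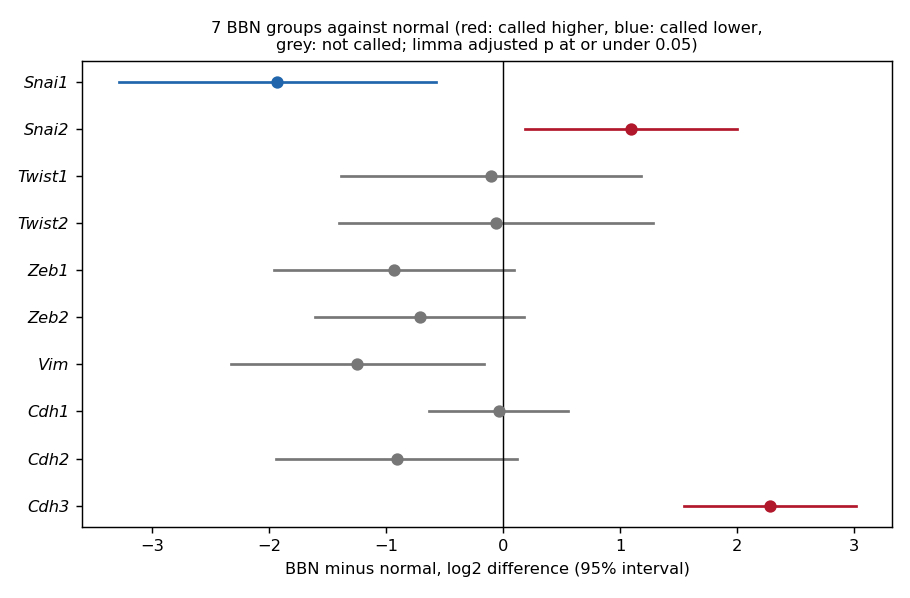
Difference between the 7 BBN groups and the normal group for each gene (horizontal axis, BBN minus normal, log2, with the 95% interval as a line). Cdh3 and Snai2 lie to the right of 0 and are called higher, Snai1 lies to the left and is called lower, and the interval of Vim excludes 0 while its adjusted p of 0.0586 misses the threshold.

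Other genes of the pathway were read from lists chosen with earlier results of these data known. Of all genes 42.7% were called (23.7% higher and 19% lower), and of the tested genes of the 7 lists between 11.1% and 57.1%. Among 9 genes of TGF-beta signalling, which induces Snai1 and Zeb genes, 0 were higher and 4 lower after BBN, with a median of -0.55 beside 0.13 over all genes. The share called, 44.4%, is near that of all genes. These were the signal transducers Smad2 (-1.68, adjusted p = 5.29e-06) and Smad3 (-1.02, adjusted p = 0.00972) and the receptors Tgfbr2 (-1.01, adjusted p = 0.00225) and Tgfbr1 (-0.81, adjusted p = 0.0115), all by limma. The ligands Tgfb1, Tgfb2 and Tgfb3 did not pass. Of 15 mesenchymal genes, 4 were higher and 2 lower (40% called, near the share of all genes), with a median of 0.02. The homeobox factor Prrx1 (1.80) and the calcium-binding gene S100a4 (2.14) were among the higher ones, and the helix-loop-helix factor Tcf4 (-1.18) and the matrix protease Mmp2 (-3.38) were the lower ones. S100a4 is also expressed by leukocytes, and Mmp2 is a fibroblast product.

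Of 13 genes of epithelial junctions, 3 were higher and 2 lower (38.5% called, near the share of all genes), with a median of -0.04. The desmosomal genes Pkp3 (1.80, adjusted p = 3.63e-05) and Dsp (2.07, adjusted p = 0.00349) rose, and the tight junction genes Cgn (-1.54, adjusted p = 9.40e-05) and Marveld2 (-1.09, adjusted p = 0.00327) fell, by limma. The claudin gene Cldn3 was not well above background on any normal array and was at least 169-fold higher in BBN samples. A bound of this kind sets the mean of the BBN groups against the lowest signal well above background on each normal array, or the probe's own where that is higher. Among 9 epithelial regulators, which oppose an EMT, Elf3 (0.85) and the splicing factor Esrp1 (0.83) rose, while Grhl3 (-1.73) and the related splicing factor Esrp2 (-0.97) fell. These are 44.4% of the list, near the share of all genes, and its median was 0.42.

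Among 8 intracellular partners of cadherins, 7 were tested and 3 were higher, 0 lower (42.9% called, near the share of all genes), with a median of 0.38. They were Afdn (2.10), the neural alpha-catenin Ctnna2 (2.65) and plakoglobin, Jup (1.84), which links cadherins to desmosomes as well as to adherens junctions. The partners of E-cadherin that every epithelium uses did not pass: Ctnnb1 differed by -0.19, Ctnnd1 by 0.16 and Ctnna1 by 0.38. Ctnna1 came nearest to the threshold of these (limma adjusted p = 0.0719). Of 8 other cadherins, 7 were tested, of which 4 were higher and 0 lower (57.1% called), with a median of 1.55. These were Cdh16 (3.14), known as kidney cadherin, Cdh13 (2.09), Cdh11 (0.56) and Cdh6, which was at least 3.997-fold higher with 12 of 19 BBN arrays and 0 of 3 normal arrays well above background, so that the BBN mean behind this value includes dim readings. Cdh11 is also among the mesenchymal genes and Cdh5 (0.07) among the endothelial markers. Of 9 corepressors and relatives of the Snail family, the demethylase Kdm1a alone passed (0.66, limma adjusted p = 0.0475), which is 11.1% of the list. In the other 7 comparisons 0 genes of these lists passed.

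The 7 BBN groups were then compared with each other, to ask whether a mutant Trp53 allele with a basal or luminal Cre driver changed these genes. Vim showed the widest separation: Upk2-Cre R270H averaged 6.04 ± 0.93 (SD, n = 2), Krt5-Cre R270H 3.98 ± 0.70 (n = 3), Upk2-Cre R172H 3.59 ± 1.34 (n = 3), Krt5-Cre R172H 3.32 ± 0.24 (n = 4), Trp53 het 2.81 ± 1.13 (n = 3), Krt5-Cre 2.81 ± 1.39 (n = 2) and Upk2-Cre 1.94 ± 0.54 (n = 2). The 2 Upk2-Cre R270H samples lay above all other samples, and neighbouring groups below them overlapped. Over the 7 BBN groups the moderated F test of limma gave a p of 0.00344 and an adjusted p of 0.591 for Vim, and 0 members were called, beside 0% of all genes. At an unadjusted p under 0.05, 2 members (Vim and Zeb1) and 1095 of 17404 genes passed.

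The Upk2 mutant groups were set against Upk2-Cre, whose 2 arrays share a source code. Vim was higher in all 5 mutant samples but 1 than in both Upk2-Cre samples, with a difference of 2.87 (SE 0.69, interval 1.42 to 4.33, 7.34-fold). Its p of 0.000664 became 0.722 after adjustment over all genes by limma, so Vim is not called. With the 2 Upk2-Cre arrays averaged into 1 the Vim difference was again 2.87, although Xist and Y-linked signals differ between those arrays. Snai1 (2.33, adjusted p = 0.777), Twist1 (1.88, adjusted p = 0.785) and Cdh2 (1.45, adjusted p = 0.788) were not called either. Twist1 was not well above background in either Upk2-Cre sample, which gives only a bound of at least 2.08-fold higher in the mutants. Of the members 0 were called, beside 0.00575% of all genes, and 4 had an unadjusted p under 0.05, as did 1094 genes. The median over the members was 1.15 and over all genes -0.09. Cdh1 differed by -0.12 (interval -0.92 to 0.67) and Cdh3 by -0.49 (interval -1.48 to 0.50). Fibroblast markers moved the same way, with a mean level of 1.39 to 3.39 in the Upk2 mutant samples, against 0.34 and 1.09 in the Upk2-Cre samples. Their part in these differences was not tested.

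The Krt5 mutant groups were set against Krt5-Cre in the same way. The member of smallest p was Zeb1 (-1.17, interval -2.49 to 0.15, limma adjusted p = 0.9997), and 0 members were called, beside 0.0115% of all genes. Vim differed by 0.84 (interval -0.55 to 2.23), Snai1 by 0.29 (interval -1.45 to 2.04) and Cdh3 by 0.18 (interval -0.76 to 1.13). The 2 Krt5-Cre samples themselves stood far apart, at -0.13 and -2.18 for Zeb1 and 1.76 and -1.07 for Zeb2, and lay on different scanners. The difference between the drivers, the Krt5 effect minus the Upk2 effect, was largest in proportion to its error for Zeb1 (-2.43, interval -4.34 to -0.52, limma adjusted p = 0.998). It was -2.04 for Vim and -2.03 for Snai1. No member was called there, beside 0% of all genes.

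Krt5 mutants were also set against Upk2 mutants directly. Vim differed by -1.16 (interval -2.19 to -0.13), Zeb1 by -1.08 (interval -2.06 to -0.10) and Cdh3 by 0.58 (interval -0.12 to 1.28), each with a limma adjusted p of 0.886. Again 0 members were called, beside 0.00575% of all genes. Between the alleles, the R270H groups against the R172H groups, Vim differed by 1.56 (interval 0.53 to 2.59, adjusted p = 0.286), Cdh3 by -0.87 (interval -1.57 to -0.17, adjusted p = 0.380) and Zeb1 by 1.19 (interval 0.21 to 2.17, adjusted p = 0.392) by limma. Here 0 members were called, beside 0% of all genes, and 3 members and 1708 genes had an unadjusted p under 0.05. All 5 R270H arrays were on scanner 1, as were 2 of the 7 R172H arrays. With scanner as a block Vim differed by 2.03 (limma adjusted p = 0.138) and Zeb1 by 1.94 (limma adjusted p = 0.122). Within scanner 1, where both alleles are present with Krt5-Cre alone, the difference was 0.76 for Vim, 1.22 for Zeb1 and -1.42 for Cdh3. Smooth muscle markers had a mean level of 2.87 to 5.62 in R270H samples and 1.54 to 3.40 in R172H samples. Fibroblast markers had a mean level of 1.86 to 3.87 in R270H samples and 1.01 to 2.49 in R172H samples. Basal urothelial markers did not overlap between the alleles, with a mean level of 6.22 to 6.58 in R270H samples and 6.69 to 7.46 in R172H samples. The part of these markers in the differences was not tested. Trp53 het samples against the Krt5-Cre and Upk2-Cre groups gave no call either, beside 0% of all genes. The largest member difference there was -0.96 for Zeb1 (interval -2.22 to 0.29, limma adjusted p = 0.9998).

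Ordering the 8 group means shows how few neighbours are apart. For Snai1 the order rises over Upk2-Cre, Trp53 het, Krt5-Cre R172H, Krt5-Cre, Upk2-Cre R172H, Krt5-Cre R270H and Upk2-Cre R270H to normal, and each neighbour overlaps the next. For Cdh3, Upk2-Cre R270H was the lowest BBN group at 0.73 ± 0.15 (n = 2) and Krt5-Cre R172H the highest at 2.19 ± 0.72 (n = 4); Upk2-Cre R270H did not overlap the normal group, at -0.79 ± 0.15 (n = 3), and all other neighbours overlapped. Zeb1 was highest in Upk2-Cre R270H, at -0.47 ± 0.04 (n = 2), which did not overlap the normal group next to it. In Snai2 the step without overlap was again between Upk2-Cre R270H (1.91 ± 0.27, n = 2) and normal (1.44 ± 0.16, n = 3), and in Vim between the same groups with Upk2-Cre R270H on top. In Twist1, Twist2, Zeb2, Cdh1, Cdh2 and Snai1 all neighbours overlapped. The share of all genes with such a step was not counted, and groups this small often separate, so the steps are not read as a result. The Upk2-Cre R270H arrays were also on scanner 1 and the normal arrays on scanner 2.

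Within the BBN samples the members moved in blocks. Over the 19 BBN arrays, 45 pairs of members were correlated, with two-sided permutation tests of 100000 resamples adjusted over the 45 pairs, and 26 passed, 16 with a positive and 10 with a negative r. Snai1, Vim, Cdh2, Zeb1, Zeb2 and Twist1 were positively correlated with each other in every pair. Snai2 and Cdh3 formed a second block. All 26 pairs kept their sign within each scanner, with sizes of r between 0.510 and 0.961 on scanner 1 and between 0.369 and 0.948 on scanner 2. Without the 2 arrays farthest from the median of the first gene, sizes lay between 0.362 and 0.834. After group means were removed they lay between 0.380 and 0.854, so the blocks were also present within groups.

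**Figure D3:**
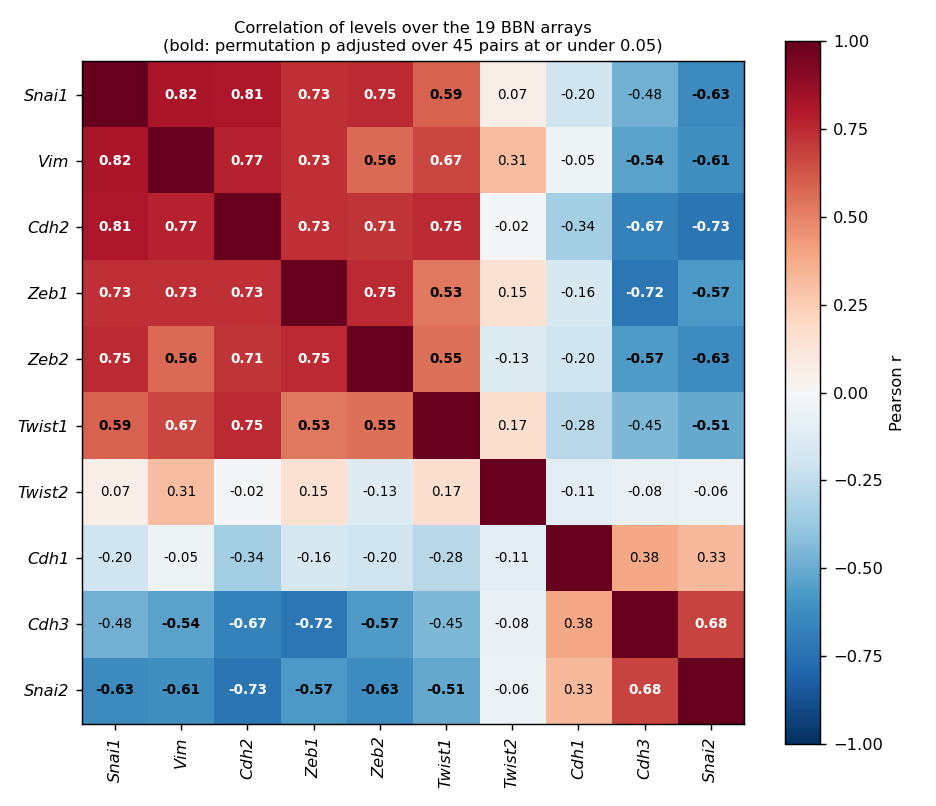
Pearson correlation between the levels of each pair of the 10 genes over the 19 BBN arrays (colour and number), with bold numbers where the permutation p adjusted over 45 pairs is at or under 0.05. Snai1, Vim, Cdh2, Zeb1, Zeb2 and Twist1 form a positive block, Snai2 and Cdh3 correlate positively with each other, and Cdh1 and Twist2 pass with no other gene.

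The pair of highest r was Snai1 and Vim (r = 0.817, rho = 0.905, n = 19, permutation p = 4e-05, adjusted p = 0.0009), with r = 0.744 without the 2 farthest arrays. It was 0.816 on scanner 1 and 0.948 on scanner 2. Snai1 and Cdh2 followed (r = 0.811, rho = 0.793, permutation p = 3e-05, adjusted p = 0.0009, r = 0.789 without the 2 farthest arrays). Zeb1 and Zeb2, the paralogous repressors, gave r = 0.747 and rho = 0.649 (permutation p = 0.00021, adjusted p = 0.00135, r = 0.683 without the 2 farthest arrays). Pairs with Twist1 rest on dim spots: in the deposited table, which gives it a value on only 10 arrays, r between Snai1 and Twist1 was -0.367, beside 0.590 here.

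Both Snail paralogues ran against each other. Snai1 and Snai2 gave r = -0.635 and rho = -0.642 (permutation p = 0.00299, adjusted p = 0.00841), with -0.634 on scanner 1, -0.753 on scanner 2 and -0.523 without the 2 farthest arrays. Snai2 was positively correlated with Cdh3 (r = 0.678, rho = 0.688, permutation p = 0.00275, adjusted p = 0.00825, r = 0.496 without the 2 farthest arrays). Its negative r with Cdh2 was -0.734 (rho = -0.695, permutation p = 9e-05, adjusted p = 0.0012, r = -0.581 without the 2 farthest arrays). Cdh2 and Cdh3 were negatively correlated as well (r = -0.673, rho = -0.667, permutation p = 0.00111, adjusted p = 0.00384, r = -0.490 without the 2 farthest arrays). Cdh1 passed with no other member: with Cdh2, r was -0.342 (rho = -0.209, permutation p = 0.154, adjusted p = 0.230) and -0.0909 without the 2 farthest arrays. The repressors of Cdh1 did not pass against it either, with r of -0.20 for Snai1, -0.16 for Zeb1 and -0.20 for Zeb2. Snai2 had a positive r of 0.33 with Cdh1, which was -0.21 without the 2 farthest arrays, and did not pass.

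These blocks ran along with markers of other cell types. Each member was correlated with the mean level of 12 marker lists, 120 pairs in all and adjusted together, of which 45 passed, 30 positive and 15 negative. With the 7 fibroblast markers tested, r was 0.891 for Snai1 (rho = 0.904, permutation p = 1e-05, the smallest these permutations can give, adjusted p = 0.0003), 0.883 for Zeb2, 0.849 for Zeb1, 0.777 for Cdh2, 0.758 for Vim and 0.607 for Twist1, with adjusted p-values up to 0.0209. Without the 2 farthest arrays r was 0.861 for Snai1, and it was 0.966 on scanner 1 and 0.808 on scanner 2. The second block went the other way: r with fibroblast markers was -0.705 for Snai2 (rho = -0.709, permutation p = 0.00063, adjusted p = 0.00501) and -0.684 for Cdh3 (rho = -0.719, permutation p = 0.00119, adjusted p = 0.00649). These were -0.588 and -0.674 without the 2 farthest arrays. Cdh1 (-0.269, adjusted p = 0.371) and Twist2 (0.118, adjusted p = 0.718) did not pass. What part of a member's spread comes with the amount of stroma was not tested.

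**Figure D4:**
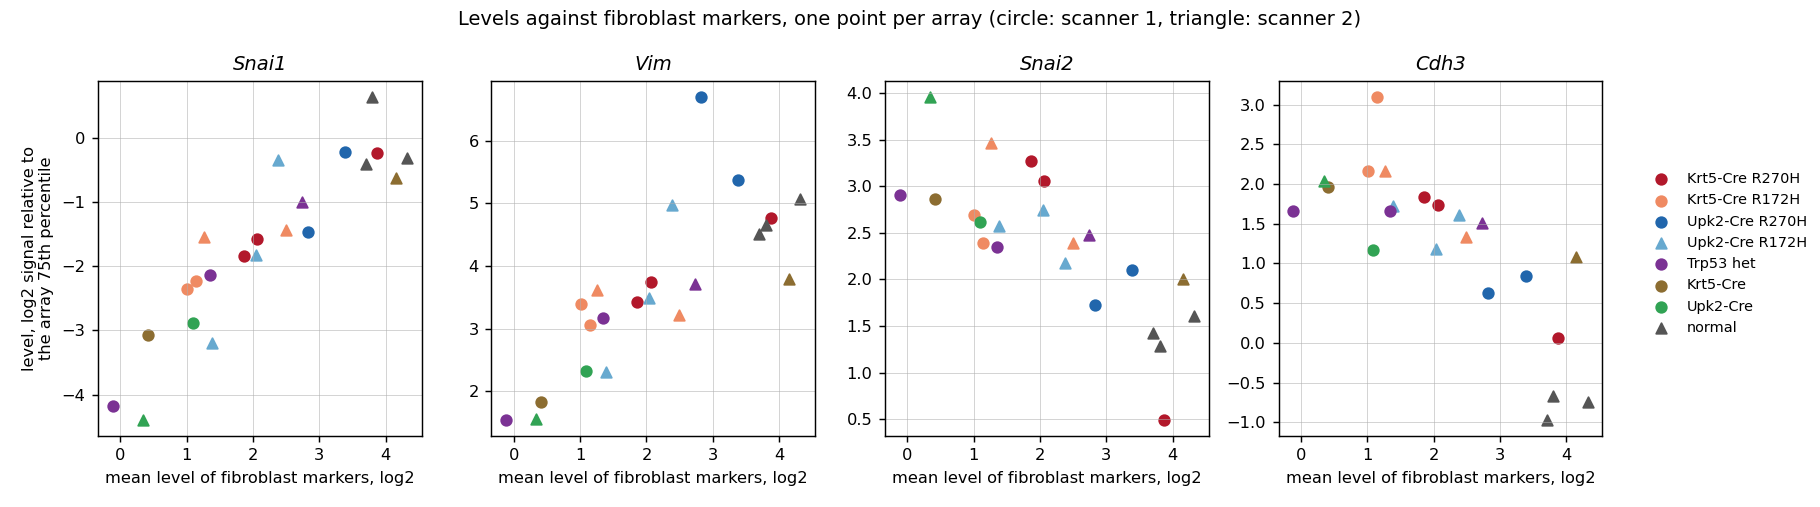
Level of Snai1, Vim, Snai2 and Cdh3 (vertical axes, log2 relative to the 75th percentile of the array) against the mean level of 7 fibroblast markers (horizontal axes, log2), 1 point per array, coloured by group, circles for scanner 1 and triangles for scanner 2. Snai1 and Vim are higher and Snai2 and Cdh3 lower in BBN samples with more fibroblast marker RNA, and the 3 normal samples lie at the high end of the fibroblast markers.

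With other marker lists the order of the members differed. Endothelial markers had r = 0.889 with Snai1 (rho = 0.947, permutation p = 1e-05, adjusted p = 0.0003, r = 0.869 without the 2 farthest arrays) and 0.867 with Vim (rho = 0.939, permutation p = 1e-05, adjusted p = 0.0003, r = 0.923 without the 2 farthest arrays). Macrophage markers had r = 0.775 with Zeb2, a gene that macrophages express (rho = 0.826, permutation p = 9e-05, adjusted p = 0.0012, r = 0.803 without the 2 farthest arrays). This was not particular to Zeb2: they also passed with Snai1 (0.715), Cdh2 (0.696) and Vim (0.575), and negatively with Snai2 (-0.620) and Cdh3 (-0.552). Zeb2 itself had a higher r with fibroblast markers, 0.883. Basal urothelial markers had negative r with Vim (-0.808, rho = -0.784, permutation p = 2e-05, adjusted p = 0.0004) and Snai1 (-0.743, rho = -0.700, permutation p = 0.00024, adjusted p = 0.00231), but with quantile normalization these were -0.394 and -0.162, so they depend on the scaling. Cdh3 had a negative r with luminal markers (-0.677, rho = -0.577, permutation p = 0.00178, adjusted p = 0.00854), which was -0.360 without the 2 farthest arrays. With basal markers its r was 0.407 (adjusted p = 0.156), so P-cadherin did not pass against the markers of the layer in which it is best known.

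Genes with the pattern most like each member over the 19 BBN arrays were found by Pearson r, with no test. For Snai1 they were Fkbp7 (0.941), Mmrn2 (0.937) and Pde4b (0.928), and for Vim Nid1 (0.924), Dysf (0.907) and Peak1 (0.903). For Zeb2 they were Thbs3 (0.959), Rcn3 (0.922) and Fcgrt (0.915), for Zeb1 Sema3a (0.929), Bnc2 (0.909) and Reep1 (0.904), and for Cdh2 Lix1l (0.933), Pald1 (0.894) and Adcy4 (0.881). The second block had Thumpd3 (0.885), Immp2l (0.882) and Sarnp (0.876) for Snai2, and Dse (0.876), Pank1 (0.872) and Samd12 (0.853) for Cdh3. For Twist1 they were Hoxc6 (0.838), Cd1d1 (0.784) and Arhgef6 (0.774). Outside the blocks they were Rffl (0.784), Nkiras2 (0.735) and Dusp19 (0.728) for Cdh1, and Serp2 (0.841), Tmem179 (0.813) and Ccnd1 (0.804) for Twist2. All these points share the same libraries and array scaling.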

How the data were processed

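RNA levels of 22 mouse bladder samples were read on 1-colour Agilent arrays, 1 array per sample. Per the file headers, the processed spot intensities were made by Feature Extraction (Agilent, 11.0.1.1), with 2 protocol settings, 1 for each scanner. Version 9.1, and limma without a version, are named per the submitters' processing notes. The deposited normalized table holds log2 values normalized by the authors (method: not given in the sources used here). All its columns share 1 highest value, and each orders the probes like its own array.

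From the intensities, log2 of the processed signal minus the 75th percentile of unflagged non-control spots was taken per array. Of 56605 probes, 32994 had 1 gene symbol, 0 several and 23611 none, through RefSeq (GRCm38.p6). The brightest probe stood for a gene, and genes with 2 or more of the 22 arrays well above background were tested; 17 genes with a flagged value were dropped. All arrays were fitted together, as 8 group means, with limma (3.58.1, R 4.3.3), Benjamini-Hochberg adjustment per comparison over 17404 genes, and 0.05 as threshold. Groups within a side were weighted alike. Where nothing says that samples came from separate animals, p-values measure only the spread between samples. The 2 Upk2-Cre samples share a source code, as do 2 Trp53 het samples, but their values differed. By Xist and Y-linked signal the Upk2-Cre pair also differed in sex. The number of arrays limits precision. Correlations and figures used pandas 2.3.3, numpy 2.4.6 and matplotlib 3.10.9 under Python 3.11.15.

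The members, lists and comparisons were chosen with earlier results of these data known. Named genes are the 10 members, up to 4 genes of smallest p of each list, and the 3 genes of highest r with each member; Dsp, Cdh5 and the genes named as not passing were added after their values were seen. On simulated data with 200 of 17404 genes changed by 2 on the log2 scale, the fit recovered 63% for BBN against normal, 61% for Krt5 mutants against Krt5-Cre, 50% for Upk2 mutants against Upk2-Cre, 78% for Krt5 against Upk2 mutants, 17.5% for the difference between drivers, 79% for R270H against R172H and 53% for Trp53 het against the Cre controls. Of genes changed by 1, it recovered 25%, 1%, 0%, 20%, 0%, 27.5% and 0% in the same order. Where so few genes change, changes of that size are thus mostly missed. In BBN against normal 42.7% of all genes were called, which makes the adjusted threshold less strict than in the simulation. The recovery figures for that comparison therefore do not carry over to it, and genes such as Cdh11 (0.56) were called there. Alternatives were other background correction (normexp, offset 50), quantile normalization, the deposited table, filters, probe averaging, only the arrays compared, scanner, slide and replicate number as blocks, within-scanner fits, a sex covariate, averaging of arrays with 1 source code, and each array left out. The other probes of Zeb1 and Zeb2, the Xist covariate, and leaving out BBN arrays against their sex label were added after seeing the data.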

Additional observations from a re-analysis of the deposited data

How the results depend on the processing

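Cdh3 was called higher after BBN under all alternatives run, with differences of 2.03 to 2.52 and, with single arrays left out, 2.19 to 2.36. Snai1 kept its direction under all alternatives and lost its call under scanner as a block, slide as a random block (-1.96, adjusted p = 0.0771), the Xist covariate, and without any 1 of the 3 normal arrays. Snai2 kept its direction and lost its call in 18 of 22 fits with 1 array left out (differences 0.997 to 1.22) and in 9 of 14 other settings, among them normexp (adjusted p = 0.0634), no filter (0.0695) and slide as a random block (0.145). Vim passed in 5 of 14 settings and in 5 of 22 fits with 1 array left out: Krt5-Cre R270H replicate 2, Upk2-Cre R270H replicate 1, Krt5-Cre replicate 1, Trp53 het replicate 1 or Upk2-Cre R172H replicate 2. The count of members called, 3 of 10, was 1 to 4 over the 14 other settings, with 1 under 3 of them (scanner block, random slide block, Xist covariate). It was 1 to 5 with single arrays left out (5 without Krt5-Cre replicate 1, and 1 on leaving out any single normal array). The count of 3 also rests on the brightest Zeb2 probe, since both other probes of Zeb2 and the mean over its probes were called lower. All genes called numbered 7432, and 4586 with the filter to all 22 arrays (11104 genes tested, so fewer could be called).

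Uncalled signs turned for Twist1 under normexp (0.52) and scanner as a block (0.16), for Twist2 under the same settings (0.070 and 0.12), and for Cdh1 within scanner 2 (0.073), with the sex label (0.16) and with the Xist covariate (0.17). With single arrays left out the values ran over -0.25 to 0.050 for Twist1, -0.31 to 0.19 for Twist2 and -0.13 to 0.067 for Cdh1. Vim in Krt5 mutants against Krt5-Cre was -0.38 within scanner 2 and -0.15 to 1.82 with 1 array left out. In Trp53 het against Cre controls, single arrays left out gave -0.058 to 1.07 for Vim and -0.053 to 1.35 for Twist2. The cause was not tested. In these and the other comparisons among BBN groups 0 members were called under every alternative, while all genes called were up to 280 (Krt5 mutants, within scanner 2, beside 2), 55 (Upk2 mutants, slide as a block, beside 1), 26 (driver difference, within scanner 2), 4 (Krt5 against Upk2 mutants, within scanner 2, beside 1), 33 (R270H against R172H, slide as a block; 134 with 1 array left out), 54 (Trp53 het, slide as a block) and 114 (all BBN groups, within scanner 2), the driver, allele, Trp53 het and all-group counts beside 0.

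Of the 26 pairs of members that passed, 25 kept their sign in the deposited table and 26 in each other setting; of the 45 pairs with marker lists, 42 and 45 did. After each gene's group mean was removed, samples of different groups with the same replicate number correlated at a median of 0.03 (66 pairs, -0.48 to 0.56). Samples with other numbers had a median of -0.006 (144 pairs), so numbers share no more than a label. With the replicate block, limma gave 1.08 for Snai2 (adjusted p = 0.0632), -1.998 for Snai1 (0.0341) and 2.27 for Cdh3 (0.000419). Slide as a fixed block was not run for BBN against normal, nor scanner 2 alone for R270H against R172H, which lack the arrays. For BBN against normal, Twist1 has no fitted difference from the deposited table, which gives it values on only some arrays. Spots near background limit Snai1, Zeb1 and above all Twist1.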

Other observations

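The share of spots well above background, a measure of array quality, was correlated with each member over the 19 BBN arrays (10 relations, permutation tests adjusted together). None passed: the lowest adjusted p was 0.200, for Snai1 (r = 0.438), Zeb1 (0.452) and Zeb2 (0.457). Within scanner 1 the values were larger, with r = 0.876 for Cdh2, 0.842 for Zeb2 and -0.833 for Cdh3, and within scanner 2 they were 0.612, 0.435 and -0.220. For Snai1 r was 0.722 on scanner 1 and 0.811 on scanner 2, and for Vim 0.565 and 0.731. The part of array quality in the correlations between members was not tested. The 2 samples of highest Vim, both Upk2-Cre R270H, had mean endothelial marker levels of 0.90 and 2.29, against 0.49 to 0.51 in normal samples. Replicate 2 of Krt5-Cre R270H had the lowest Snai2 (0.49), Cdh1 (2.56) and Cdh3 (0.06) of the BBN samples and the highest Cdh2 (0.55). The same sample had mean marker levels of 3.87 for fibroblast, 5.62 for smooth muscle and 2.61 for macrophage, at or near the top of the BBN samples. Its luminal urothelial markers, at 3.13, were the highest of the BBN samples, and its basal ones, at 6.28, were near the lowest. The part of these markers in its levels was not tested.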
